A study of Sus scrofa with 28 samples.

Results

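Ribosome assembly genes encode the proteins that make, modify, fold and export the precursors of the 2 ribosomal subunits. The set held 58 gene symbols, chosen by function with earlier results of these data known. Its shares, set beside those of all probe sets below, are therefore descriptions. A gene counted as measured where the supplied annotation of the porcine array gave a probe set exactly 1 symbol and that symbol was in the set, and the brightest such probe set stood for the gene. By this rule 46 of the 58 genes were measured, among 6765 genes with a single symbol. The remaining 12 (BRIX1, DDX10, DDX18, DDX52, NCL, NOC4L, NOP14, RRP1, RRP12, TSR1, UTP6 and WDR43) were not analysed here.

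RNA came from lung lobes of female swine that had breathed through a tube under anesthesia for 10 min while lying on their backs, and were killed 12 h later. They inhaled air (3 animals), a low dose of 60 µg/kg of sulfur mustard vapor (3 animals) or a medium dose of 100 µg/kg (4 animals). Sulfur mustard reacts with DNA and other cell components and burns the airways when inhaled. Left lungs were divided into their apical, median and caudal lobes, which gave 28 arrays, with no caudal array for medium animal 39 and no apical array for medium animal 41. All animals, the air animals included, were fasted, premedicated and anesthetized. The sources used here give neither breed nor age. The tissue was whole lobe, not sorted cells, and the labelled tissue carried its defining markers: the 4 measured markers of alveolar type 2 cells had mean signals of 598 to 2929, and the 5 of alveolar type 1 cells 200 to 2591.

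Ribosomes are made mainly in the nucleolus, where RNA polymerase I transcribes the long ribosomal RNA precursor. Small nucleolar ribonucleoproteins (snoRNPs) modify this RNA at sites chosen by their guide RNAs, box C/D particles adding methyl groups and box H/ACA particles turning uridine into pseudouridine. Separate groups of factors then cut and fold the precursors of the small and large subunits and bring them to the cytoplasm, a pathway that MYC is known to drive in growing cells.

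The arrays had median signals of 55.4 to 64.2. How precise each value is depends on how many arrays there were. An index of RNA decay, the log2 excess of 3' over 5' control signal for actin and GAPDH, was highest in animal 39, at 2.25 against 0.63 to 1.30 in the other 9 animals. Mean values of this index were 1.24 in medium and 1.07 in air animals (exact permutation p = 0.886, two-sided, 35 splits). Signals are quantile-normalized intensities. An animal's value is taken over its lobes with the lobe effect removed, and differences are log2 differences of signal + 16, with standard errors from limma. Calls were made at 0.05 after Benjamini-Hochberg adjustment over 23999 probe sets.

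Most ribosome assembly genes had more signal in lungs of medium-dose animals than in lungs of air animals, by small amounts. The median difference over the 46 genes was 0.22, with a range of -0.16 to 0.65, and 42 of the 46 differences were above 0. Over all 23999 probe sets the median was -0.00062 and 49.9% were above 0. None of the 46 passed the adjusted threshold in limma's test, where 0.129% of all probe sets did. At an unadjusted p under 0.05, 24 of the 46 (52.2%) were higher in medium animals, against 8.19% of all probe sets, and 0 were lower, against 8.38%. In 22 genes (47.8%) every medium animal lay above every air animal, which held for 6.89% of all probe sets. The median of the 46 genes, set against the air mean, was 0.29, 0.21, 0.25 and 0.31 in medium animals 34, 39, 41 and 42, and lay between -0.03 and 0.03 in air animals. Without animal 39 the median was 0.28, and 29 genes (63.0%) were higher at an unadjusted p under 0.05, against 10.3% of all probe sets. Without it 7 genes (15.2%) passed the adjusted threshold, and calls over all probe sets grew as well, to 385 (1.6%), against 31 with all animals. Lobe tissue holds many cell types, and more cells that express a gene cannot be told apart from more RNA per cell.

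**Figure D1:**
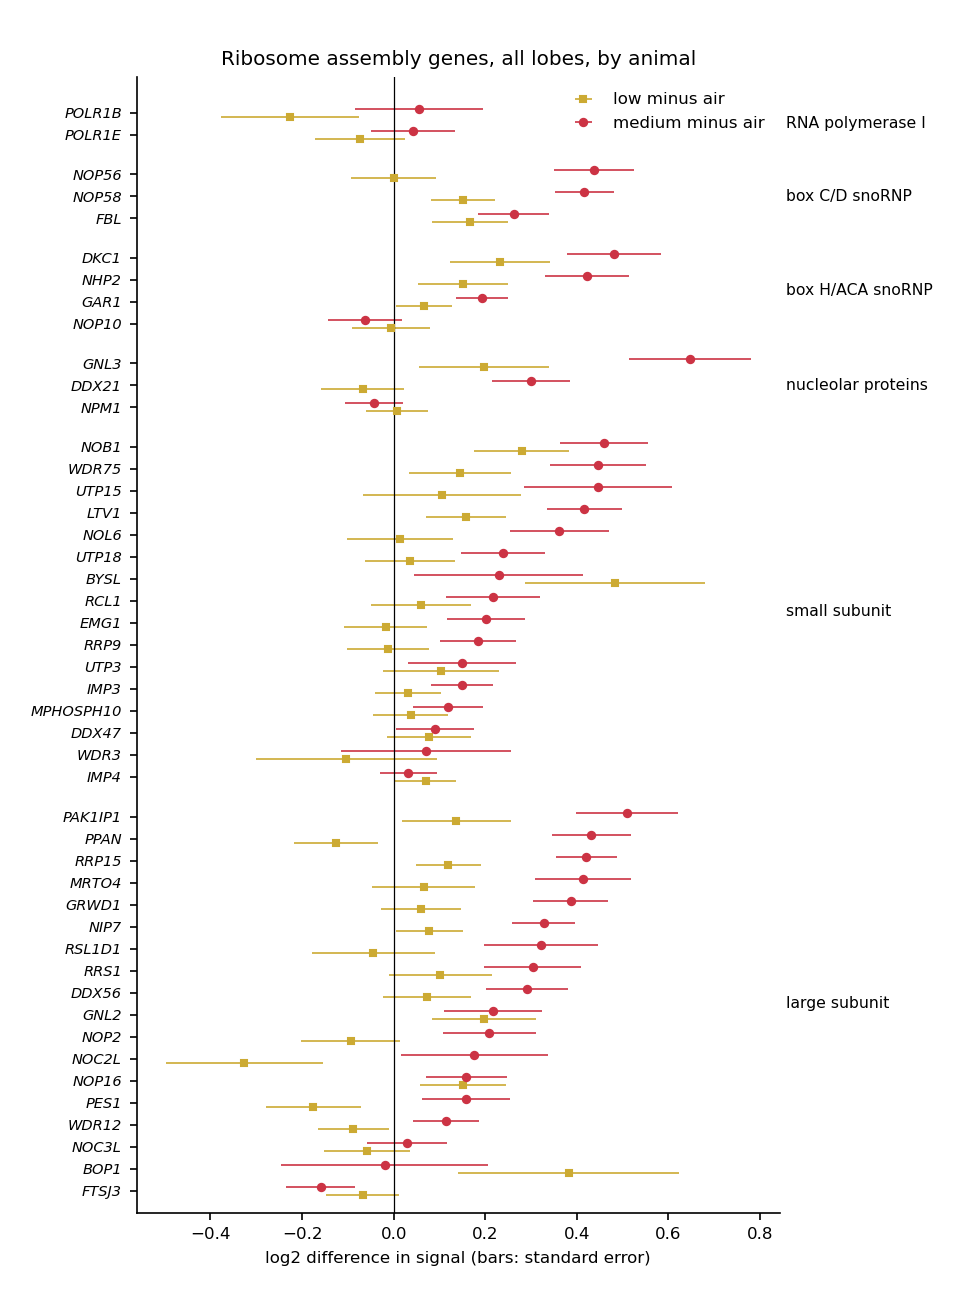
Log2 difference of each of the 46 ribosome assembly genes from air (x axis, bars are standard errors), grouped by role, in low animals (squares) and medium animals (circles). The medium differences run from -0.16 for FTSJ3 to 0.65 for GNL3 with 42 of 46 above 0, and the low differences lie around a median of 0.06.

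The core proteins of box C/D snoRNPs were among the genes with the smallest p. NOP58, which binds the guide RNA in the particle, had signals of 487, 426 and 463 in air animals, 496, 519 and 517 in low animals and 638, 590.1, 619 and 620.4 in medium animals. The 3 groups did not overlap, and the order followed the dose. Mean signal was 617 ± 19.7 in medium animals (SD, n = 4) and 459 ± 30.7 in air animals (SD, n = 3), a difference of 0.42 ± 0.064 with an adjusted p of 0.0520. Its partner NOP56 had 306, 265 and 307 in air animals, 300.5, 315 and 263 in low animals and 415, 367, 400.3 and 425 in medium animals. Here air and low animals overlapped and all medium animals lay above both, with a difference from air of 0.44 ± 0.087 (adjusted p = 0.0794). FBL, fibrillarin, the methyltransferase of the particle, differed by 0.26 ± 0.078 (adjusted p = 0.151), and its low and medium animals overlapped.

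Box H/ACA proteins split. DKC1, dyskerin, the pseudouridine synthase, had 289, 228 and 243 in air animals, 327, 279 and 292 in low animals and 384, 318, 348 and 387 in medium animals, so that medium animals cleared air but not low animals. The difference from air was 0.48 ± 0.10 (adjusted p = 0.0859). NHP2, another core protein, had 397, 332 and 316 in air animals, 383, 399.8 and 378 in low animals and 515, 491, 442 and 437 in medium animals, and all medium animals were above all others (0.42 ± 0.092, adjusted p = 0.0899). A dimmer NHP2 probe set gave -0.29 ± 0.10 (adjusted p = 0.208), the other sign. GAR1, a smaller core protein, differed by 0.19 ± 0.057 with no overlap between medium and air animals. NOP10, the smallest of the core proteins, did not share this: it had 1267, 1229 and 1116 in air animals, 1140.5, 1152 and 1307 in low animals and 1191, 1228, 1109.7 and 1079.8 in medium animals. Its groups overlapped and its difference was -0.06 ± 0.080.

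Among general nucleolar proteins, GNL3 (nucleostemin, a GTPase abundant in dividing cells) had the largest difference of the 46 genes. Its signals were 135, 118 and 133 in air animals, 153, 166 and 132 in low animals and 234, 161, 244 and 210.1 in medium animals. Animal 39 was the lowest of the medium group and lay within the low group. The medium mean was 213 ± 37.0 (SD, n = 4) and the air mean 129 ± 9.55 (SD, n = 3), a difference of 0.65 ± 0.13 (adjusted p = 0.0829). DDX21, an RNA helicase of the nucleolus, averaged 423 ± 43.2 in medium and 339.7 ± 16.8 in air animals (0.30 ± 0.084, adjusted p = 0.137). NPM1, nucleophosmin, an abundant nucleolar chaperone, had overlapping groups, with 2118, 2188 and 1932 in air animals, 2142, 2063 and 2056 in low animals and 2034, 2072, 1939.5 and 2013 in medium animals.

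Of the 16 measured genes for the small subunit, 16 had a difference above 0, with a median of 0.21, and 7 were higher at an unadjusted p under 0.05. LTV1, which acts late in assembly of this subunit, had 191, 176 and 194 in air animals, 213, 211 and 207 in low animals and 285, 233, 269.5 and 234 in medium animals. No group overlapped another, and the difference from air was 0.42 ± 0.081 (adjusted p = 0.0780). NOB1, the nuclease that makes the last cut in the small-subunit RNA, had 37.2, 46.8 and 42.2 in air animals, 55.1, 53.2 and 54.7 in low animals and 71.2, 51.4, 66.9 and 66.7 in medium animals. Animal 39 again was the lowest medium animal, below the low group, and the difference from air was 0.46 ± 0.096 (adjusted p = 0.0843). A second NOB1 probe set gave 0.50 ± 0.081 (adjusted p = 0.0520). Processome proteins WDR75 (0.45 ± 0.10), UTP15 (0.45 ± 0.16), NOL6 (0.36 ± 0.11) and UTP18 (0.24 ± 0.092), and the methyltransferase EMG1 (0.20 ± 0.085), made up the rest of the 7. The others were BYSL (0.23), RCL1 (0.22), RRP9 (0.19), UTP3 (0.15), IMP3 (0.15), MPHOSPH10 (0.12), DDX47 (0.09), WDR3 (0.07) and IMP4 (0.03), so that members of the complex of IMP3, IMP4 and MPHOSPH10 all lay at or below 0.15.

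For the large subunit 16 of 18 genes were above 0, with a median of 0.25, and 9 were higher at an unadjusted p under 0.05. RRP15 had 233, 214 and 227 in air animals, 250.0, 256 and 231 in low animals and 303, 291, 303 and 327 in medium animals, a difference from air of 0.42 ± 0.066 (adjusted p = 0.0520). PPAN, a factor for large-subunit RNA processing, had 104, 83.1 and 90.4 in air animals, 75.4, 81.4 and 93.0 in low animals and 123, 134, 128 and 135 in medium animals (0.43 ± 0.086, adjusted p = 0.0794). In both genes the medium animals stood clear of the air and low animals, which overlapped each other. NIP7 had 70.1, 69.0 and 75.1 in air animals, 80.5, 74.1 and 74.2 in low animals and 87.7, 91.4, 103 and 92.5 in medium animals (0.33 ± 0.068, adjusted p = 0.0838). GRWD1, a histone-binding nucleolar protein, had 135, 127 and 121 in air animals, 151, 133 and 118 in low animals and 163, 177, 171 and 175 in medium animals (0.39 ± 0.082, adjusted p = 0.0859). In both genes the medium animals again lay above all others, and low and air animals overlapped. PAK1IP1, whose yeast counterpart acts on the large subunit, had 95.0, 97.7 and 102 in air animals, 116, 109 and 104 in low animals and 183, 151, 126 and 130.5 in medium animals (0.51 ± 0.11, adjusted p = 0.0903), with 3 groups apart.

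MRTO4 (0.41), RSL1D1 (0.32), RRS1 (0.30) and DDX56 (0.29) completed the 9 large-subunit genes at an unadjusted p under 0.05. GNL2, a GTPase of late assembly, stood at 0.22, the RNA methyltransferase NOP2 at 0.21, NOC2L at 0.18, NOP16 at 0.16 and NOC3L at 0.03. PES1, BOP1 and WDR12 form 1 complex and had differences of 0.16, -0.02 and 0.11. A second BOP1 probe set of nearly the same mean signal (28.8) gave 0.40 ± 0.19, the other sign (adjusted p = 0.330), so the sign for BOP1 depends on the probe set. FTSJ3, an RNA methyltransferase, was the lowest of all 46: it had 268, 262 and 276 in air animals, 247, 265 and 255 in low animals and 261, 254, 216 and 227 in medium animals (-0.16 ± 0.075, adjusted p = 0.323). All medium animals were below all air animals, but a dimmer FTSJ3 probe set gave 0.34 ± 0.16 (adjusted p = 0.322). In all, 16 of the measured genes had 19 further probe sets, of which 13 shared the sign of the brightest and 6 did not (1 each of NHP2, FTSJ3, BOP1, RRP9, NOC2L and POLR1B). The RNA polymerase I subunits POLR1B (0.06 ± 0.14) and POLR1E (0.04 ± 0.092) had overlapping groups.

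**Figure D2:**
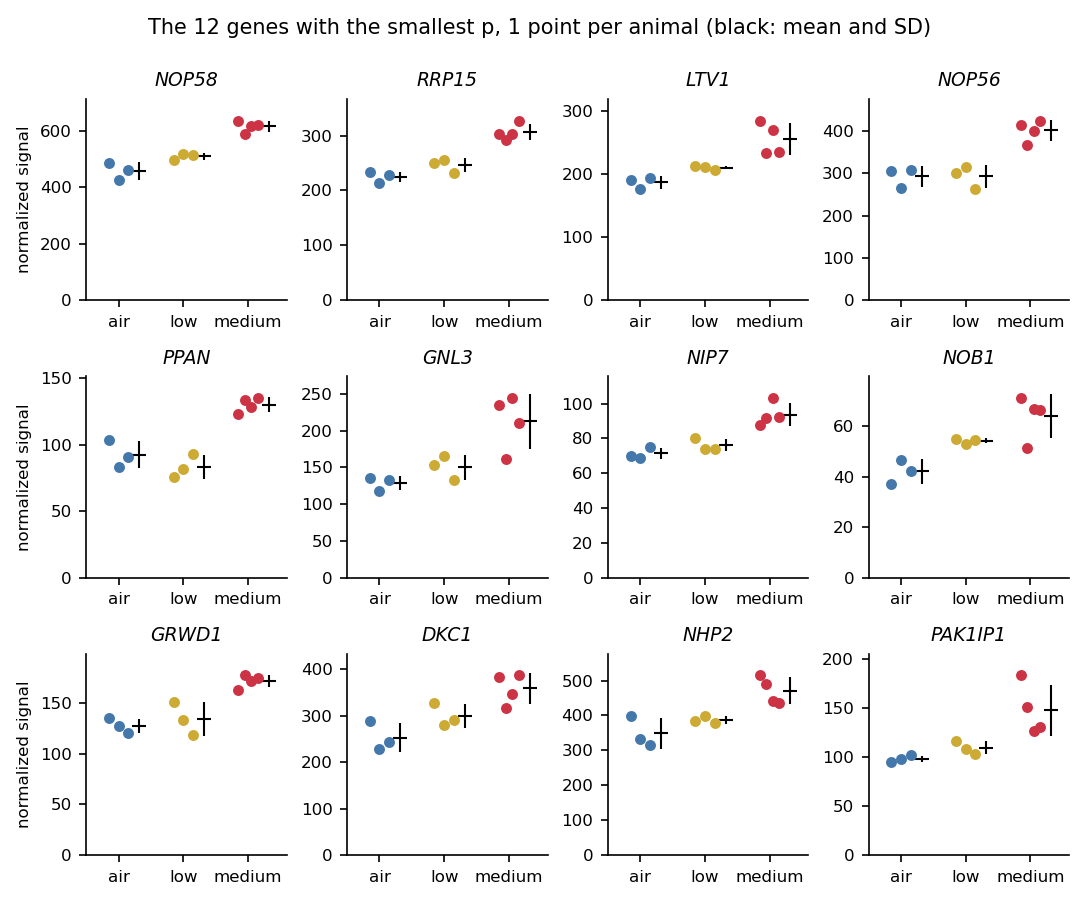
Normalized signal per animal (y axis, from 0) by exposure for the 12 ribosome assembly genes with the smallest p in medium versus air, with the mean and SD of each group beside the points. In each of the 12 genes all 4 medium animals lie above the 3 air animals, while low animals overlap the medium animals in some genes: in NOB1 all 3 low animals lie above medium animal 39.

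Low-dose animals lay nearer to air. The median difference over the 46 genes was 0.06, with 31 above 0. It was 0.03 without air animal 44 and 0.04 with arrays centred on their medians. No member was called and 0.00% of all probe sets were. By unadjusted p under 0.05, 2 of 46 (4.35%) were higher, against 3.54% of all probe sets, and 0 were lower, against 3.88%. These were NOB1 (0.28 ± 0.10, adjusted p = 0.662) and BYSL, bystin, a late factor for the small subunit. BYSL had 57.6, 59.9 and 58.1 in air animals, 96.7, 72.6 and 97.5 in low animals and 102, 46.1, 70.1 and 76.6 in medium animals. Low animals were all above air (0.48 ± 0.20, adjusted p = 0.666), while medium animals lay on both sides of air. Next by p came NOP58 (0.15 ± 0.069) and DKC1 (0.23 ± 0.11).

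Medium against low animals gave a median difference of 0.21, with 40 of 46 above 0. This comparison shares its medium animals with medium versus air, and its low animals with low versus air. No member was called, against 0.00417% of probe sets. At an unadjusted p under 0.05, 24 of 46 (52.2%) were higher in medium animals, against 9.76%, and 0 were lower, against 8.46%. The smallest p belonged to PPAN (0.56 ± 0.086, adjusted p = 0.0853), NOP56 (0.44 ± 0.087), RRP15 (0.30 ± 0.066) and DDX21 (0.37 ± 0.084). In these 4 genes every medium animal was above every low animal. DDX21 had 321, 345 and 353 in air animals, 316, 328 and 326 in low animals and 364, 430.5, 467 and 431 in medium animals, so low and air overlapped.

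The medium and air animals were also compared within each lobe. In the median lobe the median over the 46 genes was 0.40, with 42 above 0, in the caudal lobe 0.27 with 40 above 0, and in the apical lobe 0.07 with 30 above 0. Counted at an unadjusted p under 0.05, 33 of 46 (71.7%) were higher in the median lobe, against 9.14% of probe sets, 17 (37.0%) in the caudal lobe, against 7.10%, and 2 (4.35%) in the apical lobe, against 2.99%. By array, the median over the genes, set against the air mean of the same lobe, was 0.06 to 0.11 in medium apical lobes, 0.29 to 0.56 in medium median lobes and 0.09 to 0.47 in medium caudal lobes. The air arrays ran from -0.08 to 0.08 over all lobes and the low arrays reached 0.18. The medium apical arrays came from animals 34, 39 and 42 and the caudal arrays from 34, 41 and 42, so the lobes were not compared over the same animals.

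**Figure D3:**
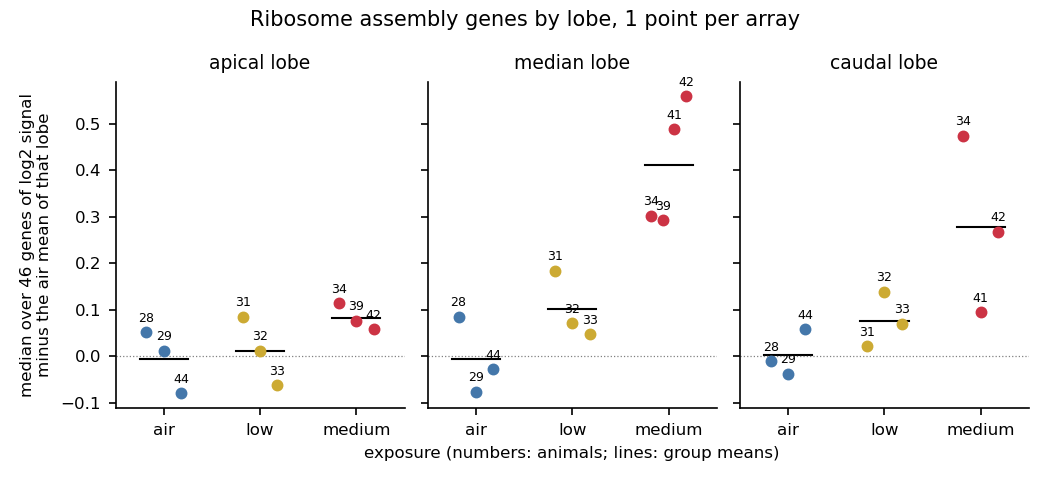
Median over the 46 genes of log2 signal minus the air mean of the same lobe (y axis), 1 point per array, by exposure and lobe, with animal numbers and group means as lines. Medium arrays lie at 0.29 to 0.56 in the median lobe and at 0.06 to 0.11 in the apical lobe.

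In the median lobe 4 members rose (8.70%), against 0.404% of all probe sets called. LTV1 had 193, 162 and 193 in air animals, 211, 235 and 217 in low animals and 308, 266, 300.5 and 293 in medium animals, a difference of 0.63 ± 0.094 from air (adjusted p = 0.0411). RSL1D1, which binds ribosomal protein in the nucleolus, had 181, 155 and 195 in air animals, 179.9, 189 and 166 in low animals and 265, 298, 306 and 354 in medium animals (0.73 ± 0.11, adjusted p = 0.0411). PAK1IP1 had 109, 96.0 and 105 in air animals, 138, 109 and 96.5 in low animals and 199.5, 191, 156 and 178 in medium animals (0.72 ± 0.12, adjusted p = 0.0492). NOP56 had 315, 232 and 331 in air animals, 332, 295 and 265 in low animals and 486, 466, 534 and 598 in medium animals (0.81 ± 0.14, adjusted p = 0.0492). In all 4 genes the medium animals stood clear of both other groups in this lobe, whereas in the apical lobe their differences were 0.14, -0.01, 0.22 and 0.09. The caudal lobe lay between, with differences of 0.46, 0.24, 0.59 and 0.38 in the same order. The 4 genes were picked by their test in the median lobe. Clear groups there and smaller differences elsewhere follow in part from that choice. These calls sat close to the threshold: 0 were called when any animal but 34 was left out, when the RNA index of each array was a covariate, or when only medium and air were fitted, while 7 genes (15.2%) were called without animal 34, against 1.66% of all probe sets. In the caudal lobe no member was called, against 0.00417% of probe sets, and in the apical lobe none, against 0.00%.

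Whether the exposure difference itself depended on the lobe was tested as an interaction. No member passed the adjusted threshold, nor did any probe set (0.00%), and 10 of 46 members (21.7%) had an unadjusted p under 0.05, against 7.39% of probe sets. POLR1E had the smallest p (0.000701, adjusted p = 0.595). In the apical lobe it had 103, 99.7 and 103 in medium animals, against 114, 136 and 139 in air animals. In the median lobe it had 137, 130.1, 129.6 and 148 in medium animals, against 96.9, 95.1 and 121 in air animals. Medium animals were thus below air in one lobe and above it in the other, without overlap. POLR1E was picked for the smallest interaction p of the 46 genes, which favours such a crossing. The share of all probe sets with this pattern was not taken. NOP56 and PES1 followed (adjusted p = 0.595 and 0.625). In PES1 the medium animals reached 191, 217, 255 and 207 in the median lobe, against 179.5, 142 and 142 in air animals, and overlapped air in the apical lobe.

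**Figure D4:**
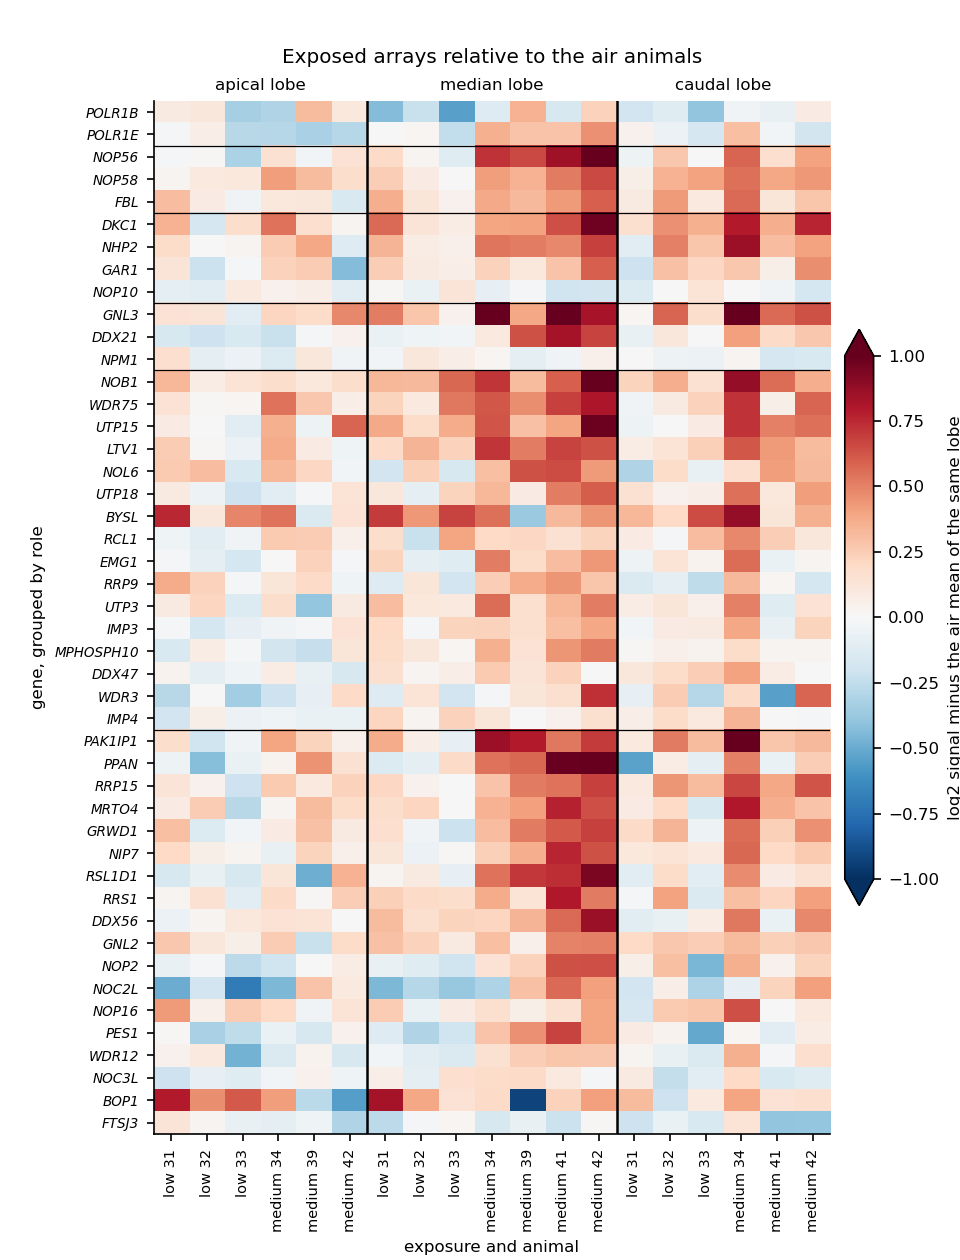
Log2 signal of each ribosome assembly gene (rows, grouped by role) on each array of an exposed animal (columns) minus the air mean of the same lobe, red for higher and blue for lower, with colours saturating at 1 in either direction. The columns of medium median lobes hold the most red, with 40 to 44 of 46 genes above the air mean on each array, against 27 to 30 on medium apical arrays.

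Within animals, the apical lobe had less signal of these genes than the median lobe. The median difference, apical minus median, was -0.20, and 43 of 46 genes were below 0, where the median of all probe sets was 0.0034. Of the 46 genes, 11 (23.9%) fell in the apical lobe, against 0.992% of all probe sets, and 32 (69.6%) were lower at an unadjusted p under 0.05, against 7.45%. The smallest p belonged to MRTO4, which holds the place of a stalk protein on the maturing large subunit (-0.46 ± 0.081, adjusted p = 0.0136). It was lower in the apical lobe in 9 of 9 animals with both lobes. RRS1 (-0.37 ± 0.066), GRWD1 (-0.44 ± 0.079), NHP2 (-0.48 ± 0.098), RRP9, a protein of the U3 particle (-0.35 ± 0.075), and PAK1IP1 (-0.43 ± 0.097) came next, with adjusted p from 0.0136 to 0.0303 and the same direction in 8 or 9 of 9 animals. FBL, NOP58, NOP56, LTV1 and GNL3 were the other called genes, so all 3 box C/D proteins were among the 11. NPM1 (-0.01), NOC3L (-0.00) and POLR1E (0.05) had differences close to 0 between these lobes.

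**Figure D5:**
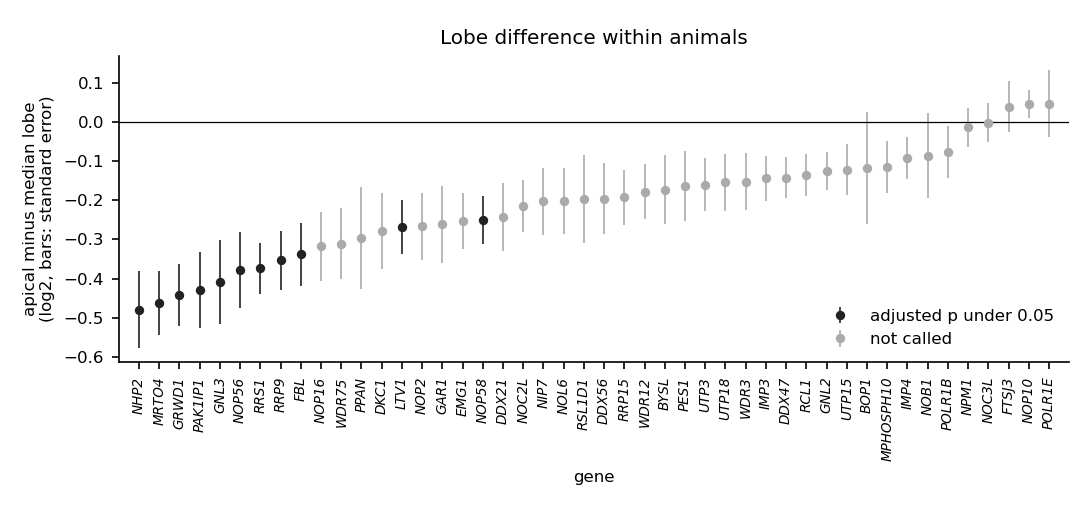
Apical minus median lobe within animals (y axis, log2, bars are standard errors) for each of the 46 genes in order of the difference. The 11 called genes are drawn dark and lie between -0.48 and -0.25, and 43 of the 46 genes lie below 0.

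Each animal was also taken alone, without a test of exposure. The median lobe difference over the genes was -0.31, -0.27 and -0.50 in medium animals 34, 39 and 42, -0.15, -0.10 and -0.18 in low animals, and -0.07, 0.00 and -0.10 in air animals. For GRWD1, apical lobes of medium animals had 117, 138 and 118, and median lobes of the 4 medium animals 179, 209.6, 226 and 237. In air animals its apical lobes had 109, 117 and 103 and its median lobes 161, 133 and 132. The lobes did not overlap in medium or in air animals. In low animals they did: the apical lobe of animal 31 had 139, above the median lobes of animals 32 (138) and 33 (120). The GRWD1 difference in air animals, apical minus median, was -0.33, larger in size than the medians over the genes in these animals. Without the medium animals 0 genes were called and the median was -0.09, and without animal 42 alone 0 were called and the median was -0.15. The count was 2 without animal 34, 3 without animal 39, 4 without animal 28, 3 without animal 44, 6 or 7 without animals 32, 33 or 41, 9 without animal 31 and 12 without animal 29, where 2.38% of all probe sets were called in either direction. Without the animal as a block it was 5, in the 8 animals with all lobes 2, and with arrays centred on their medians 6. For these fits, other than that without animal 29, the share of all probe sets was not taken. Whether the counts moved with the whole array was not tested.

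Against the caudal lobe, the apical lobe was lower by a median of 0.15 (-0.15, apical minus caudal). No member was called, against 0.0542% of probe sets, and 21 of 46 (45.7%) were lower at an unadjusted p under 0.05, against 6.85%. GRWD1 (-0.38 ± 0.082, adjusted p = 0.0707), PAK1IP1 (-0.44 ± 0.10) and LTV1 (-0.29 ± 0.072) had the smallest p. Median and caudal lobes differed by a median of 0.05 (median minus caudal), with no call among members or probe sets (0.00%) and 3 of 46 (6.52%) higher at an unadjusted p under 0.05, against 5.22%. These were RRP9 (0.26 ± 0.075), RRS1 (0.17 ± 0.066) and GNL2 (0.11 ± 0.049).

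Marker genes of other cells also differed between the groups. Summed signal of the 6 T and NK cell markers was 635 to 1205 in medium animals and 1413 to 1474 in air animals, and that of the 2 B and plasma cell markers 1423 to 1647 in medium and 1764 to 1888 in air animals. The 5 smooth muscle markers summed to 7240 to 8544 in medium animals and 5916 to 7174 in air animals. None of these ranges overlapped, while the 6 markers of cycling cells overlapped, at 844 to 1107 in medium and 907 to 983 in air animals. Low animals were also clear of air animals in smooth muscle markers (7263 to 7888) and in B and plasma cell markers (1483 to 1602). Their T and NK cell markers, at 1019 to 1621, overlapped air. By lobe, the median sum of the smooth muscle markers was 6761 in apical and 7683 in median lobes, and that of the 3 airway secretory markers 1069 in apical and 1405 in median lobes. Other lists went the other way. The endothelial markers had 4451 in apical and 4102 in median lobes, and the macrophage markers 2068 and 1745. None of the measured markers of these lists was at 0. Their part in the differences of the ribosome assembly genes was not tested.

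Most of the 46 genes varied together over animals, and less so with the group means removed. Each gene's correlation with the mean of the other standardized genes over 10 animals had a median of 0.73 and a range of -0.63 to 0.95, and 34 of 46 exceeded 0.5. RRP15 (0.95), NOP56 (0.93) and NOP58 (0.93) were highest, and FTSJ3 (-0.63), NOP10 (-0.43) and NPM1 (-0.35) lowest. With the group means removed the median was 0.34 and the lowest value -0.65, 15 of 46 exceeded 0.5 and 10 were below 0. These points share arrays and scaling, and the values are descriptions. Of 6719 other genes, those most like the mean of the set over the 10 animals were EIF4E (0.97), HIGD1A (0.96), UTP4 (0.95), GPATCH4 (0.95), EIF4A1 (0.95) and KPNA2 (0.95). EIF4E binds the mRNA cap and EIF4A1 unwinds mRNA in translation initiation, and UTP4 belongs to the small-subunit processome. The set was higher in medium than in air animals, so genes picked for likeness to it differ in that direction by the choice itself. Differences between medium and air were 0.41 ± 0.072 for EIF4E, 0.32 ± 0.067 for HIGD1A, 0.48 ± 0.10 for UTP4, 0.44 ± 0.079 for GPATCH4, 0.39 ± 0.091 for EIF4A1 and 0.40 ± 0.081 for KPNA2, and none was called.

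Genes of the same pathway outside the set gave smaller medians in medium versus air. The set was chosen with earlier results of these data known, so smaller medians outside it can follow from that choice. Other small-subunit factors had a median of 0.14, with 21 of 25 above 0 and 6 higher and 1 lower at an unadjusted p under 0.05. UTP4 and PNO1 (0.30 ± 0.079) had the smallest p. Other large-subunit factors had a median of 0.15, with 21 of 28 above 0 and 11 higher and 0 lower, led by CCDC86 (0.38 ± 0.069, adjusted p = 0.0731) and NIFK (0.36 ± 0.079). The 5 genes listed under snoRNP assembly had a median of 0.09, with NOP9 (0.26 ± 0.097) and the helicase RUVBL1 (0.16 ± 0.081) first by p. The RNA exosome, which trims precursors, had a median of 0.04 over 8 genes with EXOSC5 at 0.30 ± 0.080 and EXOSC7 at -0.25 ± 0.068. Further genes of RNA polymerase I and its factors had a median of 0.03 over 7 genes and a range of -0.30 to 0.41. Of these, 2 were higher and 1 was lower at an unadjusted p under 0.05. POLR1C stood at 0.41 ± 0.098 and TAF1D at 0.29 ± 0.081. No gene of these 5 lists was called.

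Ribosomal proteins, the parts that the assembly factors put in place, were set beside them. The 60 measured genes for cytosolic ribosomal proteins had a median difference of -0.02 between medium and air, 19 of 60 were above 0, and 1 was higher and 0 lower at an unadjusted p under 0.05. RPS15A (0.25 ± 0.065) and RPL37 (0.19 ± 0.098) had the smallest p, RPS15A at a low mean signal of 14.8 in medium and 9.84 in air animals. Between the apical and median lobes their median was 0.01.

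Of the 4 measured genes of the MYC network, 1 lay above 0 and 3 below when medium animals were set against air, and their median difference was -0.11. MYC, the transcription factor known to drive nucleolar genes, was the one above 0. It had 214, 173 and 197 in air animals, 212, 216 and 198 in low animals and 258, 210.0, 317 and 350.1 in medium animals. Medium animal 39 lay within the air range and the other 3 medium animals lay above it. The difference was 0.49 ± 0.15 (adjusted p = 0.163), and between apical and median lobes -0.28 ± 0.086 (adjusted p = 0.0881). MXI1, a MYC antagonist, differed by -0.35 ± 0.14 between medium and air (adjusted p = 0.261), and the related MXD4 and MXD3 by -0.21 ± 0.14 and -0.02 ± 0.12. MXI1 was higher in the apical than in the median lobe by 0.63 (adjusted p = 0.0172). Of 15 measured growth genes known as MYC-linked, 13 had more signal in medium than in air animals, and the median difference was 0.18. Only NME1, a nucleoside diphosphate kinase, passed the threshold in that list: it had 270.4, 228 and 250.3 in air animals, 313, 271 and 322 in low animals and 426, 398, 362 and 384 in medium animals (0.62 ± 0.088, adjusted p = 0.0396).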

How the data were processed

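RNA of 28 lung lobes from 10 swine was hybridized to Affymetrix porcine arrays, per the labels. The deposited value of a probe set on an array is a linear intensity, and the mean after trimming 2% from each end was 150.02 on every array, as after scaling by the authors. The software and scaling target are not given in the sources used here. The table held 24123 probe sets, of which 124 controls were left out. Of the rest, 10069 had 1 symbol, 198 several and 13732 none.

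Intensities were used as log2(signal + 16) and quantile normalized. Models were fitted in R 4.3.3 with limma 3.58.1, and figures drawn with matplotlib 3.10.9 under Python 3.11.15. The animal was the replicate: its value was its coefficient in a model on animal and lobe, and the 3 exposures were fitted together with lmFit and eBayes. Exposure was also tested in each lobe. Lobes were compared with the animal as a block, since lobes of 1 animal pair by the labels. Deviations of lobes of the same animal correlated at 0.15 to 0.62. The interaction used the moderated F test.

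Per-animal values are given for the 12 members with the smallest p in medium versus air, the 3 lowest, and members called in any exposure contrast. Other contrasts name the 3 or 4 smallest p and called members up to 6 in full, other pathway lists the 2 smallest p or called genes, and likeness the 6 nearest genes. MYC is given whatever its p. POLR1C, TAF1D, EXOSC5 and EXOSC7 follow the list rule. FBL, GAR1 and other members given only by a difference complete the account of the set. The members and lists were chosen with earlier results of these data known.

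Alternatives were deposited scaling, median centring, an offset of 1, only brighter probe sets, trend and robust eBayes, a random animal effect, plain means, only the groups compared, the 8 complete animals, an RNA index covariate, all probe sets of a gene, and leaving out each animal. For the median-lobe calls and the apical versus median lobe, the RNA covariate, median centring and leaving out the medium animals were chosen after seeing the data.

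The steps were tested on simulated data with known changes.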

Additional observations from a re-analysis of the deposited data

Results flagged for a closer look

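In 5 of the 46 genes, 1 of the 4 medium animals stood apart from the other 3 by Dixon's ratio of its gap to the range of the group, which was above the critical value for 4 samples. Chance gives about 1 such group in 20. The share over all probe sets is not given here, so whether the set differs from the rest of the array is not known. NOC2L was lowest in animal 34 (ratio 0.929), at 78.5 against 126 to 130.1 in the other medium animals. RRP9 was lowest in animal 42 (ratio 0.8997), at 70.9 against 84.7 to 86.3. GNL2 was lowest in animal 39 (ratio 0.883), the animal with the highest RNA index, at 148 against 196 to 204. MRTO4 was highest in animal 41 (ratio 0.852), at 223 against 199 to 202, and this animal had no apical array. FBL was highest in animal 34 (ratio 0.848), at 759.6 against 693 to 703.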

How the results depend on the processing

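In medium versus air the median over the genes (0.22) was 0.28 in the 8 complete animals, 0.26 after adding the RNA index to the fit, and 0.21 to 0.28 leaving out each animal. Members called (0) were 2 with only brighter probe sets, 10 with a random animal effect, 4 with the RNA covariate and 0 to 7 leaving out each animal. Probe sets called (31) were 53, 1037 and 143 under these settings, 1 with only both groups compared, 2 in the complete animals and 0 to 385 leaving out each animal. In low versus air, probe sets called (0) were 28 with a random animal effect and 0 to 2 leaving out each animal. Members higher at an unadjusted p under 0.05 (2) were 1 with brighter probe sets and 5 with only both groups. They were 5 in the complete animals and 0 to 5 leaving out each animal. The share of all probe sets at this unadjusted threshold was not taken for these settings. In medium versus low, the median (0.21) was 0.26 in the complete animals, members called (0) were 2 with a random animal effect and 0 to 4 leaving out each animal, and probe sets called (1) were 3 with brighter probe sets, 5 with trend and robust eBayes, 1393 with a random animal effect, 2 with only both groups and 0 to 1373 leaving out each animal. The high counts came without animal 39 in medium versus air and without animal 34 in medium versus low.

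Lobes of 1 animal were paired, with the animal as a replicate block. Without that block 5 genes instead of 11 were called in apical versus median lobe. The count was 0 in the air animals alone, 0 without the medium animals, 2 in the complete animals, 6 with median centring and 0 to 12 leaving out each animal. Shares of all probe sets were not taken for these lobe counts, except without animal 29. The 4 median-lobe calls were 0 with the RNA covariate, 0 with only both groups and 0 to 7 leaving out each animal.

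In low versus air the median over the genes (0.06) was 0.04 with median centring and 0.03 to 0.07 leaving out each animal. Signs turned for some named members, most with a difference near 0. In low versus air NOP56 was -0.0187 with deposited scaling, -0.0448 with median centring, -0.00028 with an offset of 1, -0.0232 with the RNA covariate and -0.0667 to 0.0712 leaving out each animal. NPM1 was -0.0132 with deposited scaling, -0.0392 with median centring and -0.0447 to 0.0445 leaving out each animal. NOP10 was 0.0158 with the RNA covariate and -0.0678 to 0.0317 leaving out each animal, and GRWD1 was -0.0219 to 0.138. In medium versus low BYSL, at -0.25 over all animals, was 0.0012 in the complete animals, and NOP10 was -0.0904 to 0.00557 leaving out each animal. In medium versus air 0 of the named members turned sign. The cause was not tested. With 3 or 4 animals a group, the number of animals limits which small differences could be called.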

Other observations

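The array also carries control probe sets for ribosomal RNA, which were left out of the tests. In 5 such probe sets the difference between medium and air ranged from -0.08 to 0.45, and the exact permutation p from 0.400 to 0.914 (two-sided, 35 splits). The probe set for the smallest of these RNAs had a signal of 334 to 874 in air animals, 203 to 462 in low animals and 335 to 1029 in medium animals.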
